A study of Mus musculus with 2 samples.

Results

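The replication-dependent histone genes are the short, intronless genes that supply most histone protein while DNA is being copied. They were taken as all protein-coding genes of GENCODE M21 whose symbols begin with Hist1h to Hist4h, which gave 67 of 21938 coding genes. Of these, 54 lie in the Hist1 cluster on chromosome 13, 10 in Hist2 on chromosome 3, 2 in Hist3 on chromosome 11 and 1, Hist4h4, on chromosome 6. By product, 6 encode the linker histone H1, 18 encode H2A, 18 H2B, 12 H3 and 13 H4. Chromatin accessibility had been measured by ATAC-seq, in which a transposase cuts and tags open DNA, in primary regulatory T cells. The cells came from a male adult mouse of 4 months, of the strain Foxp3CreERT2 x Rosa26YFP, and the labels give bone marrow hematopoietic cells as their origin. In the usual reading of those allele names, Foxp3CreERT2 puts a drug-inducible Cre recombinase under the Foxp3 gene and Rosa26YFP is a fluorescent reporter locus; no agent is named in the labels. There was 1 biological replicate with 2 technical replicates, the peak lists cover both together, and there was no second condition, so every contrast here is a description without a test.

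H2A, H2B, H3 and H4 form the protein core around which DNA is wrapped, and H1 binds the DNA between cores. The clustered genes are transcribed mainly in S phase, from nuclear bodies where the coactivator NPAT gathers, and their mRNAs end in a stem-loop in place of a poly(A) tail. Classical promoter elements include CCAAT boxes bound by NF-Y, the octamer bound by OCT1 on H2B genes, the AAACACA box of H1 genes and a site bound by HINFP on H4 genes.

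The promoter sequences below show what the accessible and the inaccessible members look like (GRCm38, RefSeq start sites). The first 3 lie between the start sites of head-to-head H2A and H2B genes on the plus strand: the pair of highest signal, the open pair of lowest signal, and the testis pair, which had no peak. They cover chr13:22035644-22035820, chr13:23574208-23574380 and chr13:23934157-23934436. Capitals mark CCAAT, the octamer ATTTGCAT and TATAAA on either strand.
Hist1h2ah/Hist1h2bk: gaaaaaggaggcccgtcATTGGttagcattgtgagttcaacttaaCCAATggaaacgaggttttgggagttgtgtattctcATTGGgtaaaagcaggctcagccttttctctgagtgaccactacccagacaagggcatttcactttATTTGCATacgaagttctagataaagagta
Hist1h2bf/Hist1h2ad: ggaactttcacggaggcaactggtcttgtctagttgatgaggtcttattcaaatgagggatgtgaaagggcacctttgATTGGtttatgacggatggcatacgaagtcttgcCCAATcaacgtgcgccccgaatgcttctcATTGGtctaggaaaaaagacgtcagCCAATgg
Hist1h2ba/Hist1h2aa: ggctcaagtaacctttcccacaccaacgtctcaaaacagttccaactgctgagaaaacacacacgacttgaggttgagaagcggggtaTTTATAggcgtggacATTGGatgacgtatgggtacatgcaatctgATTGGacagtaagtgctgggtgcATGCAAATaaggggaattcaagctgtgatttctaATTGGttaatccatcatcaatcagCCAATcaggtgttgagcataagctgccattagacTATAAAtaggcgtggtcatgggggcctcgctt
The open pairs hold 3 and 4 CCAAT boxes, and the closed testis pair holds 4. The octamer is present in Hist1h2ah/Hist1h2bk and in the testis pair. TATAAA has 0 matches in both open sequences, of 177 and 173 bases, and 2 in the testis pair, of 280 bases. Between the start codons, a wider window, each of these 2 open pairs held 1 TATAAA and the testis pair held 2. Of the 11 open pairs, 7 held 1 TATAAA there and the others 0.

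The next 3 are the 150 bases before the start sites of H1 genes: Hist1h1c, which had a summit at its start; Hist1h1b, which had none there; and the testis gene Hist1h1t, which had no promoter peak. They lie at chr13:23738657-23738806 on the plus strand, chr13:21780626-21780775 on the minus strand and chr13:23695661-23695810 on the plus strand. Capitals mark the AAACACA box and CCAAT.
Hist1h1c: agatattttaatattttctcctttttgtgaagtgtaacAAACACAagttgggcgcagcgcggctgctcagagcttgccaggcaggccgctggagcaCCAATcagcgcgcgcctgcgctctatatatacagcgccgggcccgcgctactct
Hist1h1b: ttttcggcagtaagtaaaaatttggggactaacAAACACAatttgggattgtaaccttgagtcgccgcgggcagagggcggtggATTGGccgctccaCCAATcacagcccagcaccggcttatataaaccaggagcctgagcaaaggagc
Hist1h1t: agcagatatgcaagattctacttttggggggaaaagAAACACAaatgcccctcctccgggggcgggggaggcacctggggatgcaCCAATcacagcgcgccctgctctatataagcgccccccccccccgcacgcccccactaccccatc
Each of the 3 carries 1 AAACACA box followed by CCAAT, whether or not a peak lay over it.

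The last 2 are the 150 bases before the start sites of the H4 gene of highest signal, Hist1h4c, and of Hist1h4n, whose surroundings are duplicated. They lie on the minus strand at chr13:23698459-23698608 and chr13:21832198-21832347, and capitals mark GGTCCG, the core of the H4 site.
Hist1h4c: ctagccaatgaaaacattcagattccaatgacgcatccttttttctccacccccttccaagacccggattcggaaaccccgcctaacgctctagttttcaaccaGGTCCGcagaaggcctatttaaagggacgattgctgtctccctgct
Hist1h4n: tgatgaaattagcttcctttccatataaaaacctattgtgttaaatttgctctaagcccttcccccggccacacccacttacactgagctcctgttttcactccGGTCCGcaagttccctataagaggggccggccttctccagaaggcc

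Almost every histone gene lay at accessible chromatin. In the list of 34610 peaks that passed the irreproducible discovery rate (IDR) threshold, 63 of 67 histone genes (94.0%, 95% exact binomial interval 85.4 to 98.3%, counting error only) had a promoter peak, that is, a peak within 1 kb of an annotated start site. The share over all coding genes was 52.6%. In the larger pseudoreplicated list of 58871 peaks the count was again 63 of 67, against 57.7% of all coding genes. For comparison, cytosolic ribosomal protein genes, another large set used in growth, had a promoter peak in 80 of 83. All 12 H3 and all 13 H4 genes had one, as did 17 of 18 H2A, 17 of 18 H2B and 4 of 6 H1 genes. Since genes of a cluster stand close together, the 63 genes shared 52 peaks: 25 peaks served 1 gene, 25 served 2 and 2 served 3.

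The 4 genes without a promoter peak were Hist1h1d, Hist1h1t, Hist1h2ba and Hist1h2aa. Hist1h1t, Hist1h2ba and Hist1h2aa are the H1, H2B and H2A variants known for expression in male germ cells. The start sites of Hist1h2ba and Hist1h2aa lay 170239 and 170545 bp from the nearest peak, while Hist1h1t lay 1638 bp from one, between accessible neighbours. Hist1h1d, a somatic linker histone, differs from these: its GENCODE start at 23553262 lies 1770 bp before the RefSeq start at 23555032, and a peak of signal 8.64 covers the RefSeq start (chr13:23554871-23555587). With RefSeq starts, an alternative chosen after seeing the data, 64 of 67 genes had a promoter peak. Just inside the 1 kb limit was Hist1h1b, whose nearest peak began 612 bp from its start, and just outside it were Hist1h1d at 1231 bp and Hist1h1t.

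Accessibility was frequent but comparatively low in signal. The deposited signal is the authors' own enrichment value for each peak. For each gene the highest of any peak overlapping the window was taken, even where its summit lay outside. This signal had a median of 13.4 over the 63 genes and ranged from 4.52 to 27.7. The median was below that of 17.3 over all coding genes with a promoter peak. The authors' −log10 p went the other way, with a median of 477 against 321. Histone peaks were also narrower, 781 against 994 bp at the median. H2B genes had the highest median signal, 16.4, followed by H2A at 13.4 and H1 at 13.3, and H3 at 9.26 and H4 at 8.38 were lower. The H2A and H2B medians share values, since the 2 genes of each of 11 head-to-head pairs carry the same peak. The H1 median rests on summits past the stop codon in Hist1h1b, Hist1h1c and Hist1h1e, 1152, 958 and 1346 bp after the start. The ranges of the types overlapped, from 10.7 to 27.7 in H2B and from 5.59 to 15.3 in H4.

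**Figure D1:**
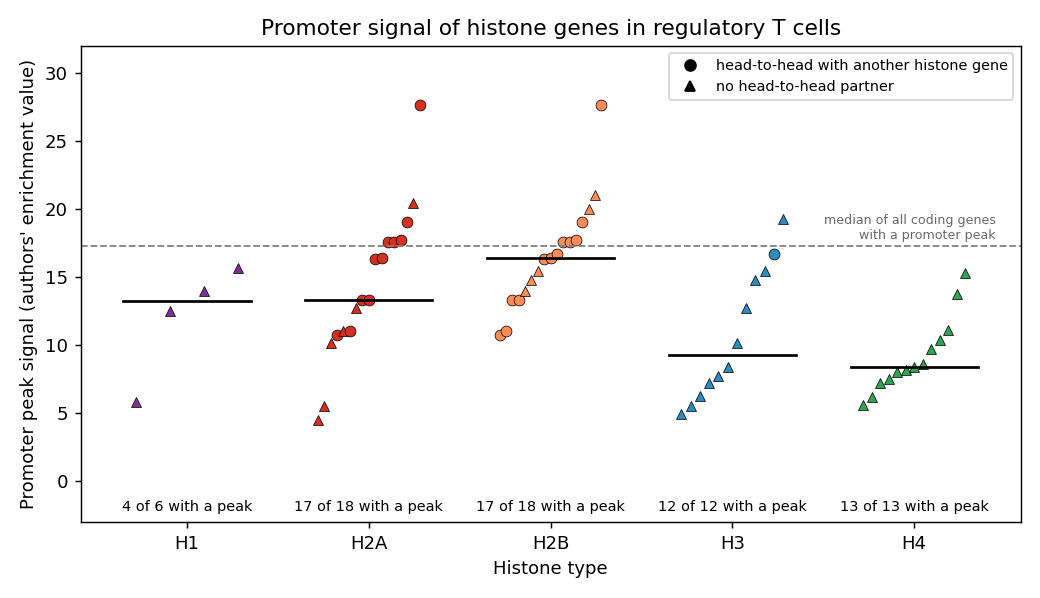
Highest signal (authors' enrichment value, linear axis) of any peak reaching within 1 kb of a start site, for each histone gene by type. Circles are genes with a head-to-head histone partner, triangles the others, bars the medians and the dashed line the median of 17.3 over coding genes with a promoter peak; H2B genes reach from 10.7 to 27.7 and H4 genes from 5.59 to 15.3.

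A window of 1 kb can hold a neighbour's peak, so the summit nearest the gene's own start was read as well. A summit lay within 250 bp of the principal start in 61 of 67 histone genes (91.0%), against 45.7% of all coding genes. The median summit position was −99 bp, upstream of the start, against −36 bp over all coding genes. This position was read from GENCODE starts, which in some histone genes, such as Hist1h2ak, stand at the start codon itself. RefSeq starts lay at −85 bp from the GENCODE start in Hist1h2ak and −98 bp in Hist1h2ao, but at 81 bp in Hist1h3c. How much of the difference from other genes comes from the annotation was not tested. By this measure the medians were 16.4 for H2B, 13.4 for H2A, 8.38 for H4, 7.25 for H3 and 5.82 for H1. The H1 value rests on 3 genes, Hist1h1e at 4.77, Hist1h1a at 5.82 and Hist1h1c at 9.43. Counting summits before the start codon, which adds Hist1h1d, the H1 median was 7.23, close to that of H3 at 7.48.

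H2A and H2B pair as dimers on either side of the H3 and H4 tetramer, and 12 pairs of their genes stood head to head, with starts 176 to 306 bp apart. A single peak covered both starts in 11 of these 12 pairs, the exception being Hist1h2ba/Hist1h2aa. Among other head-to-head coding pairs the share was 86.2% within 1 kb and 93.3% within 500 bp, so sharing 1 peak is near the background. The peaks of the 11 pairs were compact and centred: their summits lay a median of 23 bp from the midpoint of the starts (0 to 58.5 bp), against 46 bp in other pairs. In 10 of 11 histone pairs this distance was under 50 bp, against 333 of 644 others. Their width had a median of 776 bp, against 1104 bp, and was close to the 781 bp over all histone genes. The other pairs were drawn from those with starts 1 to 996 bp apart and were not matched by distance.

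Hist1h2ah/Hist1h2bk, whose promoter opens the sequences above, had the highest signal of any histone gene, 27.7, which exceeded that of 95.8% of coding genes with a promoter peak. Its summit fell on the midpoint, 151 bp from either start (peak chr13:22035326-22036124). Hist1h2ac/Hist1h2bc followed at 19.1, and its peak was the widest of the pairs at 1556 bp. Hist1h2an/Hist1h2bp reached 17.7. The pair with the closest starts, Hist1h2ae/Hist1h2bg at 176 bp, had a signal of 13.4. Hist1h2bf/Hist1h2ad, with starts 185 bp apart, was the lowest open pair at 10.7.

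**Figure D2:**
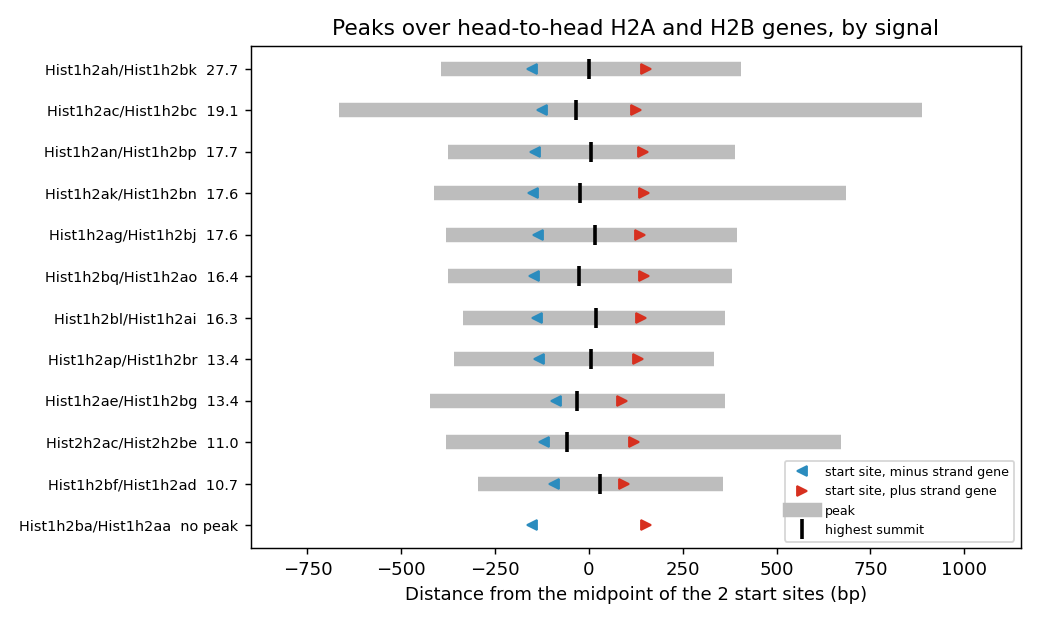
Peaks over the 12 head-to-head H2A and H2B pairs, ordered by signal (printed beside each name), on a linear axis of distance in bp from the midpoint of the starts. Grey bars are peaks, black ticks the highest summits and arrowheads the start sites; summits lie within 58.5 bp of the midpoint in the 11 pairs with a peak, and Hist1h2ba/Hist1h2aa has none.

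The widest head-to-head pair joined an H2B and an H3 gene, Hist1h2bh and Hist1h3f, 660 bp apart. No peak covered both: the peak of signal 16.7 stood over Hist1h2bh, with its summit at −109 bp from the start, and Hist1h3f had no summit within 250 bp of its GENCODE start. Hist1h3f did have a summit of its own, of 13.6, further inside its long leader, at −98 bases from its start codon. Among H2B genes, Hist1h2bm was second in signal at 21.03 with no coding head-to-head partner. H2A genes without a head-to-head partner had a median of 10.6 (n = 6) and H2B genes without one 15.4 (n = 5), while the 22 open head-to-head H2A and H2B genes had 16.4. Hist1h2af (4.52), the lowest member, and Hist1h2ab (5.57) were both H2A genes without such a partner.

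H3 and H4 form the tetramer at the centre of the core. Hist1h3e was the highest H3 gene at 19.3, with its summit at −105 bp from its start. The window values of the next H3 genes of Hist1, 16.7 for Hist1h3f and 14.8 for Hist1h3c, belonged to peaks over neighbouring H2B genes. At its own start Hist1h3c had 9.99. Hist1h3d (4.94) and Hist1h3b (5.23 at its own start) were the low end of the H3 genes of Hist1. Among H4 genes of Hist1, Hist1h4c had 15.3, Hist1h4h 11.2 and Hist1h4f 10.4, and Hist1h4m was lowest at 5.59. The 11.2 belonged to a summit 702 bp after the start of Hist1h4h, and Hist1h4h had 9.27 at its own start.

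In the Hist2 cluster all 10 genes had a promoter peak, with a narrower spread. The H2A genes Hist2h2ab, Hist2h2ac, Hist2h2aa2 and Hist2h2aa1 had 9.83, 11.02, 10.1 and 12.7 at their own starts. The H2B genes Hist2h2be and Hist2h2bb had 11.02 and 15.4, and the H4 gene Hist2h4 had 13.8. The H3 genes had lower values at their own starts, 8.13 for Hist2h3c2, 7.25 for Hist2h3c1 and 4.78 for Hist2h3b. Hist2h2aa1, Hist2h2aa2, Hist2h3c1 and Hist2h3c2 are near-identical copies, so their values are uncertain. In Hist3, Hist3h2ba had 20.01 and Hist3h2a 20.5, though Hist3h2a shares its peak with Trim17, a gene of another family. Hist4h4 was low at its own start, 5.09, with a second summit of 8.02 placed 217 bases past its stop codon.

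In 4 of 6 linker histone genes the highest summit lay past the stop codon. That summit was still inside the annotated gene in Hist1h1c, Hist1h1d and Hist1h1e. Of the 5 H1 genes other than Hist1h1t, 4 had a summit after the stop codon that was higher than any before the start codon. Hist1h1b had no summit before its start codon and one of 15.7, 413 bases past its stop codon, at a position inside no GENCODE gene. In Hist1h1c the summit 282 bases past the stop codon reached 12.5, against 9.43 before the start codon. In Hist1h1d the values were 9.63, 446 bases past the stop codon, and 8.64. In Hist1h1e they were 14.0, 629 bases past the stop codon, and 4.77. The annotation bears on the last: that summit is at −88 bp from a GENCODE start of the H2B gene Hist1h2be, while RefSeq starts Hist1h2be 35154 bp away, where another peak of 12.2 stood. Hist1h1a, chosen after its values were seen, had only a promoter summit of 5.82. Among H4 genes 3 of 13 showed this order: Hist4h4, Hist1h4h (11.2 against 9.27) and Hist1h4j (8.64 against 8.52). So did 2 of 18 H2A genes, Hist2h2ab and Hist1h2af, and 2 of 12 H3 genes, Hist2h3b and Hist1h3a, each through a summit that lies before the start codon of another histone gene. No H2B gene did. The 4 H1 summits lie before no other member's start codon, though that of Hist1h1e stands at the GENCODE start of Hist1h2be just described.

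The windows of 150 bases around these 4 downstream H1 summits held 3 CCAAT boxes in Hist1h1b, Hist1h1d and Hist1h1e and 2 in Hist1h1c. Over the highest summits of all 34610 peaks, 20.3% of such windows held any CCAAT and 1.11% held 3 or more. The windows at the promoter summits of Hist1h1a, Hist1h1c, Hist1h1d and Hist1h1e held 1 each. The Hist1h1b window is printed since it lies outside any annotated gene (chr13:21779398-21779547, minus strand, capitals mark CCAAT on either strand). These windows were examined after the summits had been found.
Hist1h1b downstream peak: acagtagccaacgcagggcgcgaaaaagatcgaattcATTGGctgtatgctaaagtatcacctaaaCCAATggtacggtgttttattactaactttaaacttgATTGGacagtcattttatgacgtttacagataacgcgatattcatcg

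Within the gene bodies, peaks covered the promoter side and faded over the coding sequence. The 300 bases before the start codon were covered in full at the median, and 63.0% of the coding sequence was covered. In 139 other single-exon coding genes with a coding length of 200 to 1000 bases and a promoter peak, median coding coverage was 100%. Over the whole transcript the order was reversed, at 52.0% in histone genes with a promoter peak against 42.6% in these 139. Median coding coverage was 58.9% in H1, 59.3% in H2A, 63.0% in H2B, 22.8% in H3 and 100% in H4. Coding summits were present in 29 genes and reached at most 6.59. Repeated sequence was counted over the same stretches. A median of 75% of coding positions began a 50-base word found elsewhere in the genome, against 0% in the 300 bases before the start codon. By type the coding medians were 0% in H1, 84.2% in H2A, 79.0% in H2B, 85.4% in H3 and 71.2% in H4. Whether repeated sequence plays a part in the coverage was not tested.

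**Figure D3:**
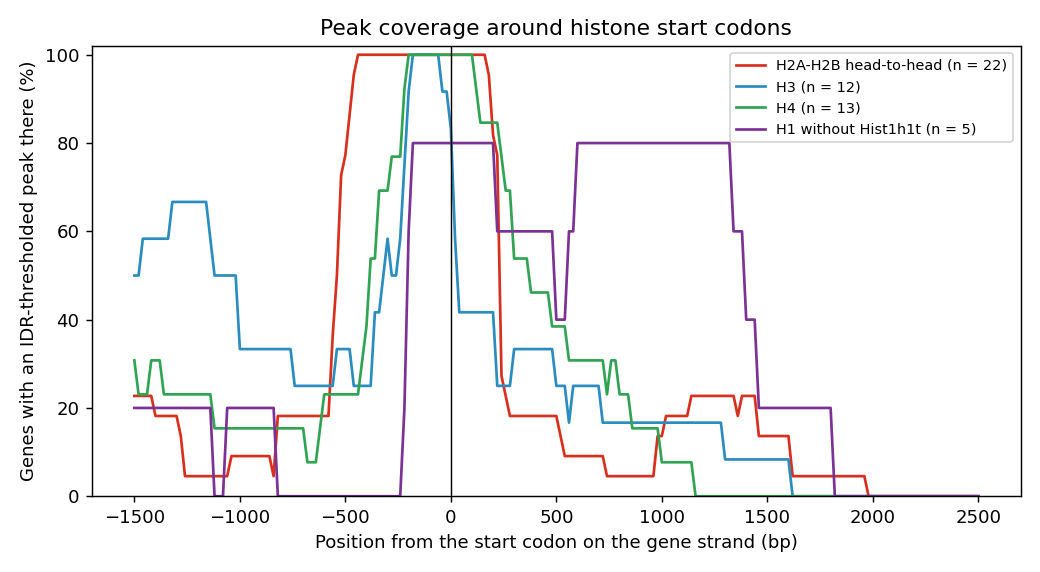
Share of genes (%, linear axis) with an IDR-thresholded peak at each position from the start codon, on the gene strand in bp, for head-to-head H2A and H2B genes with a peak (n = 22), H3 (n = 12), H4 (n = 13) and H1 without Hist1h1t (n = 5). The H1 line has a second plateau reaching past the stop codon, where 4 of 6 H1 genes have their higher summit. The H3 line drops soon after the start codon.

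Promoter peaks were also called at near-identical copies. Every 50-base word in the promoter windows of Hist1h2bq/Hist1h2ao and Hist1h2ap/Hist1h2br occurs elsewhere, yet their peaks had signals of 16.4 and 13.4. The neighbouring H4 genes Hist1h4m and Hist1h4n, at 92.98% and 91.96% repeated, had 5.59 and 7.21. How reads from such copies were assigned is not given in the sources used here, so values of these 6 genes are uncertain. The same holds for Hist2h2aa1, Hist2h2aa2, Hist2h3c1 and Hist2h3c2, in which 77.3 to 80.1% of the 300 bases before the start codon were repeated.

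Accessible sites were dense in the gene blocks. Grouping histone genes less than 100 kb apart, with 1 kb on either side, gave 440 kb holding 61 peaks, or 139 per Mb, against 12.7 per Mb over the genome. Since 52 of the 61 were the promoter peaks themselves, the density restates how closely the genes stand. The gaps between the Hist1 blocks had 16.2 peaks per Mb together but differed among themselves. The gap between the first and second block had 66.5 per Mb (13 peaks in 196 kb), and the longest, of 1485 kb, had 11.4 per Mb. The block of Hist1h2ba and Hist1h2aa held no peak in either list, and the gap beside it held none in the IDR-thresholded list and 2 in the pseudoreplicated list. Non-histone coding genes inside the cluster spans had a promoter peak in 7 of 50 (14%). None of the 36 Vmn1r pheromone receptor genes or the 4 Slc17a transporter genes had one, while 7 of the other 10 did.

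**Figure D4:**
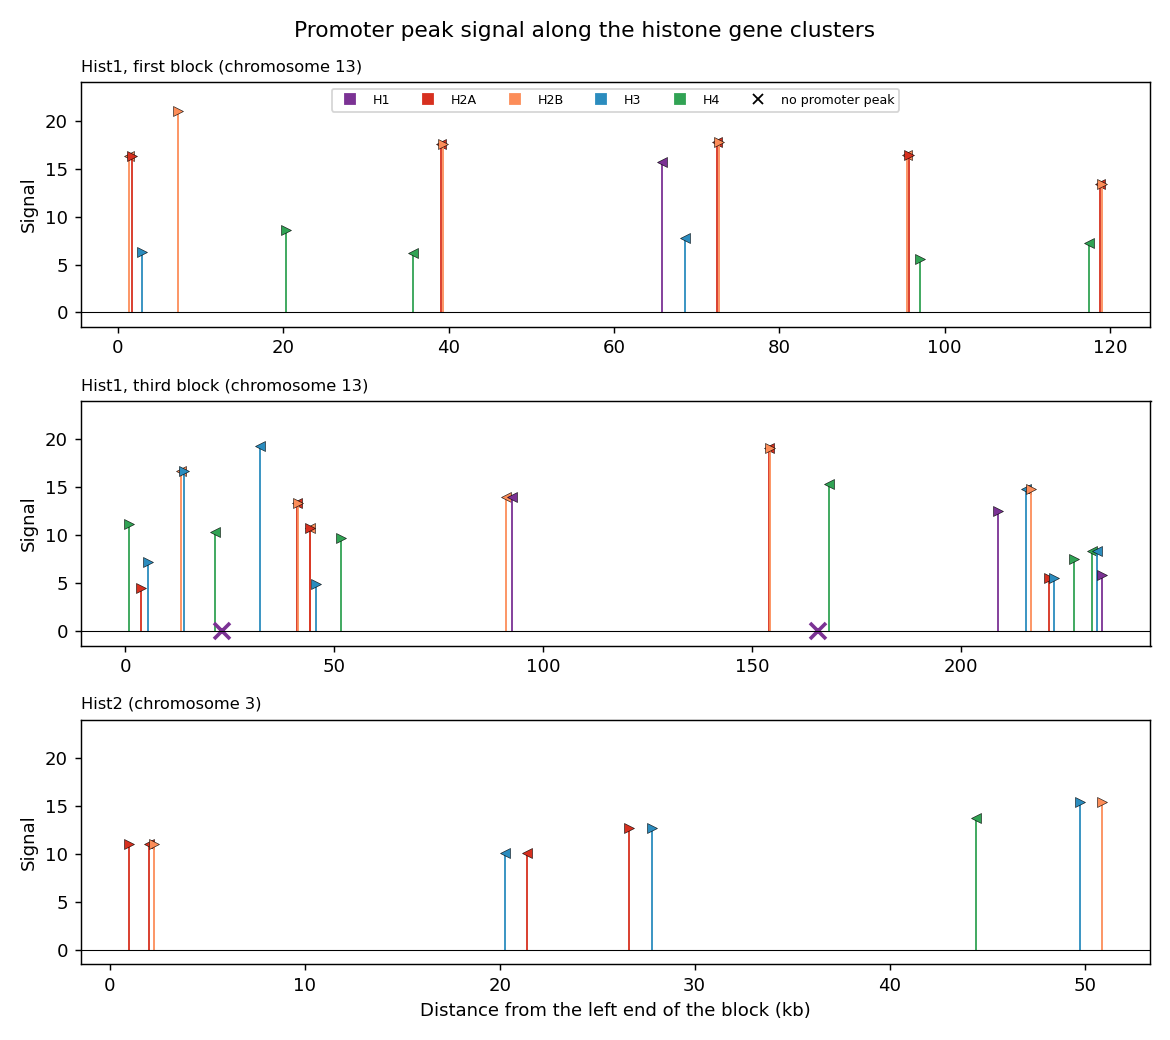
Highest promoter peak signal (authors' enrichment value, linear axis) of each histone gene along 2 blocks of Hist1 and the Hist2 cluster, by distance in kb from the left end of the block. Arrowheads point along transcription and colours give the histone type; crosses mark Hist1h1d and Hist1h1t, which lack a promoter peak between neighbours that have one.

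Promoter letters differed by type. In the 250 bases before to 50 after the principal start, on both strands, CCAAT was found in 56 of 67 histone promoters (83.6%), against 38.6% of all coding promoters. It was present in 18 of 18 H2A, 18 of 18 H2B, 11 of 12 H3 and 5 of 6 H1 promoters but in 4 of 13 H4 promoters. TATAAA was found in 37 (55.2%, against 12.5%). The octamer ATTTGCAT was found in 7 H2A and 8 H2B promoters and no other, 22.4% in all against 1.62%; head-to-head genes share their windows, so these are not separate matches. AAACACA was found in 4 of 6 H1 promoters, against 6.34% of all coding promoters. GGTCCG was found in 12 of 13 H4 promoters, against 10.4%. On the gene strand, GGTCCG began a median of 46 bases before the RefSeq start in 9 of 12 H4 genes, and AAACACA 115 bases before it in 5 of 6 H1 genes.

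**Figure D5:**
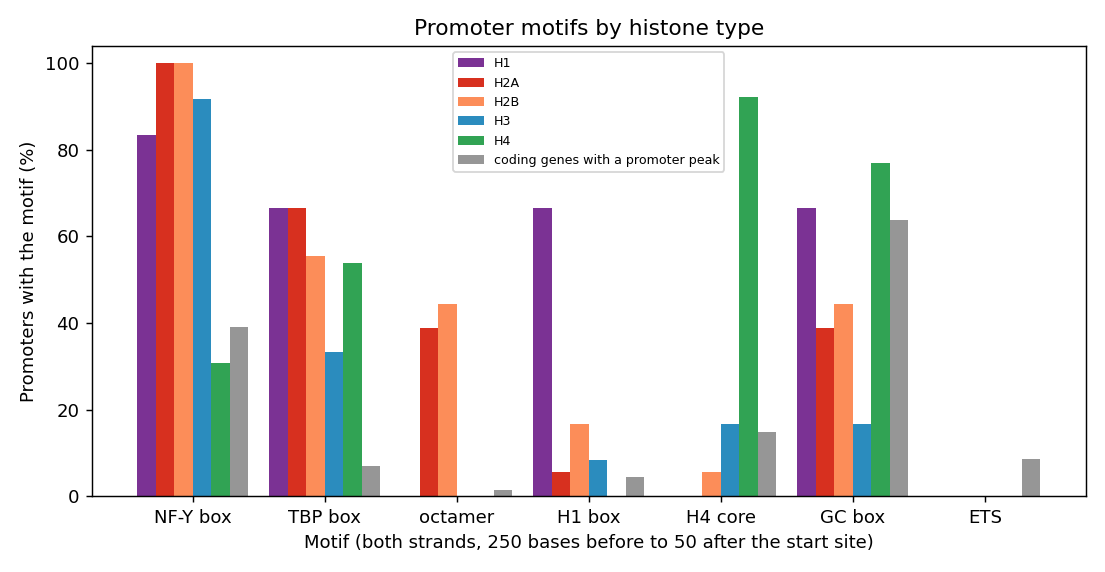
Share of promoters (%, linear axis from 0) holding each motif, by histone type and for coding genes with a promoter peak; the NF-Y box is the CCAAT motif and the TBP box the TATAAA motif. H4 stands apart in the H4 core (12 of 13) and in few NF-Y boxes (4 of 13), and the octamer bars are at 0 outside H2A and H2B.

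The E2F motif, taken as TTTCCCGC, TTTGGCGC, TTTCGCGC or TTTGCCGC, was found in 12 histone promoters (17.9%), against 2.89%, and the cAMP response element TGACGTCA in 4, against 2.49%. The GC box GGGCGG was found in 46.3% of histone promoters and 45.4% of all coding promoters, but in 63.9% of those of coding genes with a promoter peak. The ETS motif CCGGAAGT was in none of the 67, against 5.01%. Median GC content was 45.7%, against 60.7% for coding genes with a promoter peak.

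The 3′ stem-loop, which is bound by SLBP and replaces the poly(A) tail, is shown in its 3 commonest forms, with the stem in capitals.
First form: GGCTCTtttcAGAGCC
Second form: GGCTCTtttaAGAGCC
H4 form: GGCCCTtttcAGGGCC
The first form stood in 41 genes, the second in 9 and the third in 8, all of them H4 genes. Within 2 mismatches of the first, a stem-loop followed the stop codon in 61 of 67 genes, starting a median of 35 bases after it. Hist2h2be, Hist2h4, Hist1h4j, Hist1h4i, Hist1h4b and Hist1h4a had no match in the 200 bases searched. The H4 form itself stands at the limit of 2 mismatches, and the best site of the 5 H4 genes without a match had 3 or 4, against 7 in Hist2h2be, so H4 variants fall outside this limit.

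Of 26 transcription and 3′ processing factors of histone genes, all had a promoter peak, against 52.6% of all coding genes. Their median signal was 18.5 (8.16 to 30.0), against 17.3. The highest were Lsm10, a subunit of the U7 particle that takes part in 3′ cleavage, at 30.0, the NF-Y subunit Nfyc at 28.1 and E2f4, an E2F family member, at 25.1. The Nfyc summit lay 15751 bp from its principal start, near another annotated start. A summit lay within 250 bp of the principal start in 23 of the 26. Of 14 replication-independent histone variants, 10 had a promoter peak (71.4%), with a median of 13.7. H2afx, the variant phosphorylated at DNA breaks, had 23.3, the centromeric H3 variant Cenpa 23.1 and H2afv 22.2. H2afy2, H1fx, H1fnt and Hils1 had none; H1fnt and Hils1 are known as spermatid linker histones.

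The cell type label was checked on marker promoters. A promoter peak was present at 9 of 9 regulatory T and T cell genes, 0 of 4 B cell, 0 of 4 myeloid and 0 of 2 hepatocyte genes, and 1 of 3 erythroid genes (Klf1, 17.4). All 5 genes known from cycling cells had one, with a median of 18.6. Over all coding genes the share was 52.6%. In the pseudoreplicated list the B cell gene Cd79b had a promoter peak too. Tnfrsf18, at 2.69, had the lowest promoter signal of all coding genes. The Foxp3 and Ctla4 summits lay at −4879 and −21788 bp from the principal start. Those of Cd3d, Ikzf2 and Klf1 lay at 4863, 2526 and 1262 bp. Peaks of cells in different phases cannot be told apart in these pooled lists.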

How the data were processed

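ATAC-seq peaks of regulatory T cells were analysed from 3 lists on the mm10 assembly, which pool 2 technical replicates of 1 biological replicate. The deposited signal is an enrichment value per peak whose reference is not stated. The deposited −log10 p-values belong to the same peaks, and the score of the ranked list is the authors' −log10 of the irreproducible discovery rate. The aligner and the peak caller are not named in the labels or headers and the read depth is unknown, so no interval for a signal can be given. Lines with the same interval were reduced to the summit of highest signal. Start sites came from GENCODE M21, with RefSeq (GRCm38.p6) starts for 62 of 67 genes. Promoter peaks overlapped 1 kb on either side of any start. Python 3.11.15 and NumPy 2.4.6 were used, and overlap, motif and repeat searches were tested on simulated data. All 43 distinct best peaks of histone genes stood in the ranked list, at a −log10 rate of 2.70 to 4.05.

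Members and lists were chosen with earlier results of these data known. The naming rule took all Hist2, Hist3 and Hist4 genes; per type in Hist1 the 3 of highest signal, those without a promoter peak and the testis variants; the 3 highest and those without a peak of other lists; and the pairs of extreme distance. Other genes named were chosen after their values were seen. Binomial intervals (95%, Clopper-Pearson) cover counting error only.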

Additional observations from a re-analysis of the deposited data

How the results depend on the processing

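Of 120 values recomputed for 24 results, 101 stayed within the interval of the reported value and 19 moved. The median −log10 p is on another scale and was counted among the 19 without a comparison. Some intervals were too wide to leave easily, such as 15.8 to 100% for the 2 genes of Hist3. The share of histone genes with a promoter peak (94.0%) moved to 49.3% on dropping peaks below the list's median signal (39.2% of all coding genes), to 85.1% on dropping those below its median −log10 p (44.7%), to 98.4% without the 3 testis variants and to 70.1% when a peak counted only for the gene nearest its summit (46.8%). The median signal moved to 16.4 without the weaker peaks, to 5.68 with every summit kept (7.75 over all coding genes), and was 477 on the −log10 p scale (321), on which histone genes stood above all coding genes and not below them as on signal. The share with a summit at the start moved from 91.0% to 50.7% within 100 bp (35.9%) and to 80.6% with only the highest summit of each peak (39.4%). Without the weaker peaks, a promoter peak was found in 15.4% of H4, 33.3% of H3, 55.6% of H2A, 51.9% of Hist1 and 30% of Hist2 genes. The H1 share was 100% with a window of 2500 bp, and Hist1 was at 81.5% on dropping peaks of low −log10 p. On the gene strand alone, the octamer was in 11.9% of histone promoters, E2F in 8.96% and the GC box in 26.9%. The cause of these moves was not tested. Leaving out a replicate was not possible because the lists pool both technical replicates. No paired analysis was possible because there are no groups to pair.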

Other observations

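Beyond the promoter peaks by GENCODE starts, 9 other peaks lay inside the histone gene blocks. They include the peaks of 8.64 and 12.2 that cover the RefSeq starts of Hist1h1d and Hist1h2be. The highest of the 9 had a signal of 22.3 (chr13:21803105-21803430) and its summit lay 6898 bp from the start of Hist1h2bq, the nearest coding gene. Another of 19.02 (chr13:23732374-23732957) lay 6142 bp from the start of Hist1h1c, and one of 18.8 stood at Hfe, an iron regulator, 108 bp from its start. The pseudoreplicated list added 7 weak peaks in the promoter windows, with signals from 1.97 to 3.20, and 4 of these flank the duplicated pairs Hist1h2bq/Hist1h2ao and Hist1h2ap/Hist1h2br.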
